A study of Mus musculus with 8 samples.

Results

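The cytosolic ribosomal protein genes were followed over all 8 arrays of a mouse thalamus study. They were taken as the genes whose platform annotation gave a probe set a single symbol beginning with Rpl or Rps, leaving out the Rps6k kinases. The brightest probe set stood for each gene, and its mean log2 level over the 8 arrays had to reach 5.63, the level below which the dimmest 40% of all probe sets lay. Of 65 such genes on 221 probe sets, 62 passed, out of 13524 genes with a single symbol that passed in the whole series. The 3 that did not were Rpl10l (mean log2 level 5.33), Rpl3l (4.96) and Rpl39l (3.43), and the dimmest that did were Rpl14-ps1 (5.81), Rps23rg1 (5.87) and Rpl32l (6.06). The symbols held 36 genes of the large (60S) and 26 of the small (40S) subunit series. By kind, 54 were ribosomal proteins, 2 were paralogs (Rps27l and Rpl7l1), 3 were pseudogenes or non-coding copies (Rpl14-ps1, Rps19-ps3 and Rps4l), 2 were retrogenes or copies (Rps23rg1 and Rpl32l), and 1 (Rps19bp1) encodes a protein that binds Rps19. Rpl3, Rpl11, Rpl13a, Rpl39, Rps16, Rps24, Rps26 and Rps27 were among those annotated here only together with other symbols and were not members.

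The cytosolic ribosome joins a small subunit, which reads the mRNA, to a large subunit, which forms the peptide bond, and most ribosomal proteins occur in a single copy per ribosome. Many ribosomal protein mRNAs begin with a tract of pyrimidines, the terminal oligopyrimidine motif, through which the mTOR pathway adjusts their translation together. These mRNAs are abundant in nearly every cell of the brain, so a tissue level averages over neurons, glia and vessels.

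The tissue was bilateral thalamus from male C57BL/6 mice, an inbred laboratory strain, 6 weeks old at the start, with 2 mice in each of 4 groups and 300 ng of total RNA per array. MPTP mice received intraperitoneal MPTP-HCl, a neurotoxin taken up by dopaminergic neurons and used to model parkinsonism, at 20 mg/kg in 100 µl saline every 24 hr for 4 weeks. Acupoint mice received the same injections and were also needled by hand on both sides, 3 mm deep at GB34 and 1 mm deep at LR3, starting 2 hr after the first injection and then every 48 hr for 14 sessions. Non-acupoint mice received MPTP and were needled 3 mm deep at both hips on that schedule, and control mice received saline alone. Every needled mouse therefore also had MPTP, and none of these mice was needled after saline. The levels are the authors' log2 values from RMA, which brings the arrays to a common distribution, and differences below are differences of log2 levels of a probe set, never between probe sets. In bulk tissue, fewer cells of a type and less RNA per cell cannot be told apart.

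Over 15791 named probe sets past the brightness minimum, a pair of arrays differed from the rest, that of mouse 1 in the MPTP group and that of mouse 1 in the non-acupoint group. They correlated at r = 0.982 with each other and at 0.905 to 0.936 with the other 6, which correlated at 0.981 to 0.995 among themselves. All 8 markers of thalamic neurons passed the minimum, and so did 7 of 8 of choroid plexus, 7 of 8 of dopaminergic neurons and 5 of 5 of hypothalamic neurons. Results are given with and without the arrays of these 2 mice.

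Stretches around annotated starts are given for a few chosen members. Where a gene had several annotated starts, as Rps21 did, the first listed was used. The first 4 genes below differed widely, and not all in the same direction, between the mice of the MPTP and non-acupoint groups, and the last 3 passed the test between acupoint and control mice in one of the fits below. Each stretch holds 35 bases before and 25 bases from the transcription start in RefSeq's GRCm38.p6 annotation, 5′ to 3′ on the gene's strand, and the capitals mark its longest unbroken run of pyrimidines.
Rps21, chr2:180257344-180257403, plus strand: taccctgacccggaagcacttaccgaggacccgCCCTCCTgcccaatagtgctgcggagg
Rps12, chr10:23787185-23787244, minus strand: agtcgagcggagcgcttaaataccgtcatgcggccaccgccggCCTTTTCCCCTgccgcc
Rpl38, chr11:114668545-114668604, plus strand: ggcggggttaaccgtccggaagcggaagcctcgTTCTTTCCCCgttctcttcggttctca
Rpl28, chr7:4792930-4792989, plus strand: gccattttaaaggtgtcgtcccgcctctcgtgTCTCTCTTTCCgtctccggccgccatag
Rpsa, chr9:120127731-120127790, plus strand: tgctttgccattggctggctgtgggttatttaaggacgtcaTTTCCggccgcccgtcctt
Rplp0, chr5:115559432-115559491, plus strand: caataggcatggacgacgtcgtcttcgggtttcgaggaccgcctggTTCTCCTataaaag
Rps3, chr7:99483685-99483744, minus strand: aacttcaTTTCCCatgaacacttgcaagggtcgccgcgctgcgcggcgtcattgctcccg
Rps12 and Rpl28 each hold a run of 11 pyrimidines and Rpl38 one of 10, although Rps12 lay on the low side and both others on the high side in the same mice. In the like stretches of genes not printed, the longest run was 4 in Rpl9, also on the high side, and 9 in Rps27l, on the low side. For Rps21, low as well, it was 7.

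Promoter sequences of 300 bases matched 48 of the 62 members. A run of at least 8 pyrimidines on the transcript strand between 30 bases before and 50 bases after the start was present in 35 of these 48 (72.9%), against 32.3% of 27025 genes. CCGGAAG, the core bound by ETS factors, was present on either strand in 18 (37.5%, against 9.93%). AAGATGGC, a core of the YY1 element, was present on either strand in 3 (6.25%, against 3.19%), and TATAAA on the transcript strand within 50 bases of the start in 4 (8.33%, against 4.05%). CCGGAAG can share its pyrimidines with such a run on either strand, and a match describes letters only. Members with and without the pyrimidine run had like values below: their median differences between MPTP mouse 1 and mouse 2 were -0.57 (35 genes) and -0.50 (13 genes), and between acupoint and control mice -0.12 and -0.14.

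The ribosomal protein genes were low on the same pair of arrays, MPTP mouse 1 and non-acupoint mouse 1. As deviations from each gene's mean over the 8 arrays, their median was -0.40 on MPTP mouse 1 and 0.15 on MPTP mouse 2, 0.05 and 0.06 on the acupoint mice, -0.29 and 0.12 on the non-acupoint mice, and 0.15 and 0.16 on the control mice. MPTP mouse 1 gave the lowest level of the 8 arrays for 42 members, 67.7% of them, against 23.3% of all tested probe sets. The highest level lay on control mouse 2 for 16 members (25.8%, against 12.3% of all tested). It lay on non-acupoint mouse 2 for 12 (19.4%, against 11.3%) and on control mouse 1 for 10 (16.1%, against 11%). The median over all tested probe sets stayed between -0.02 and 0.02 on every array, which RMA brings about nearly by design. The members thus moved relative to that median, while other probe sets moved in both directions, as given below.

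**Figure D1:**
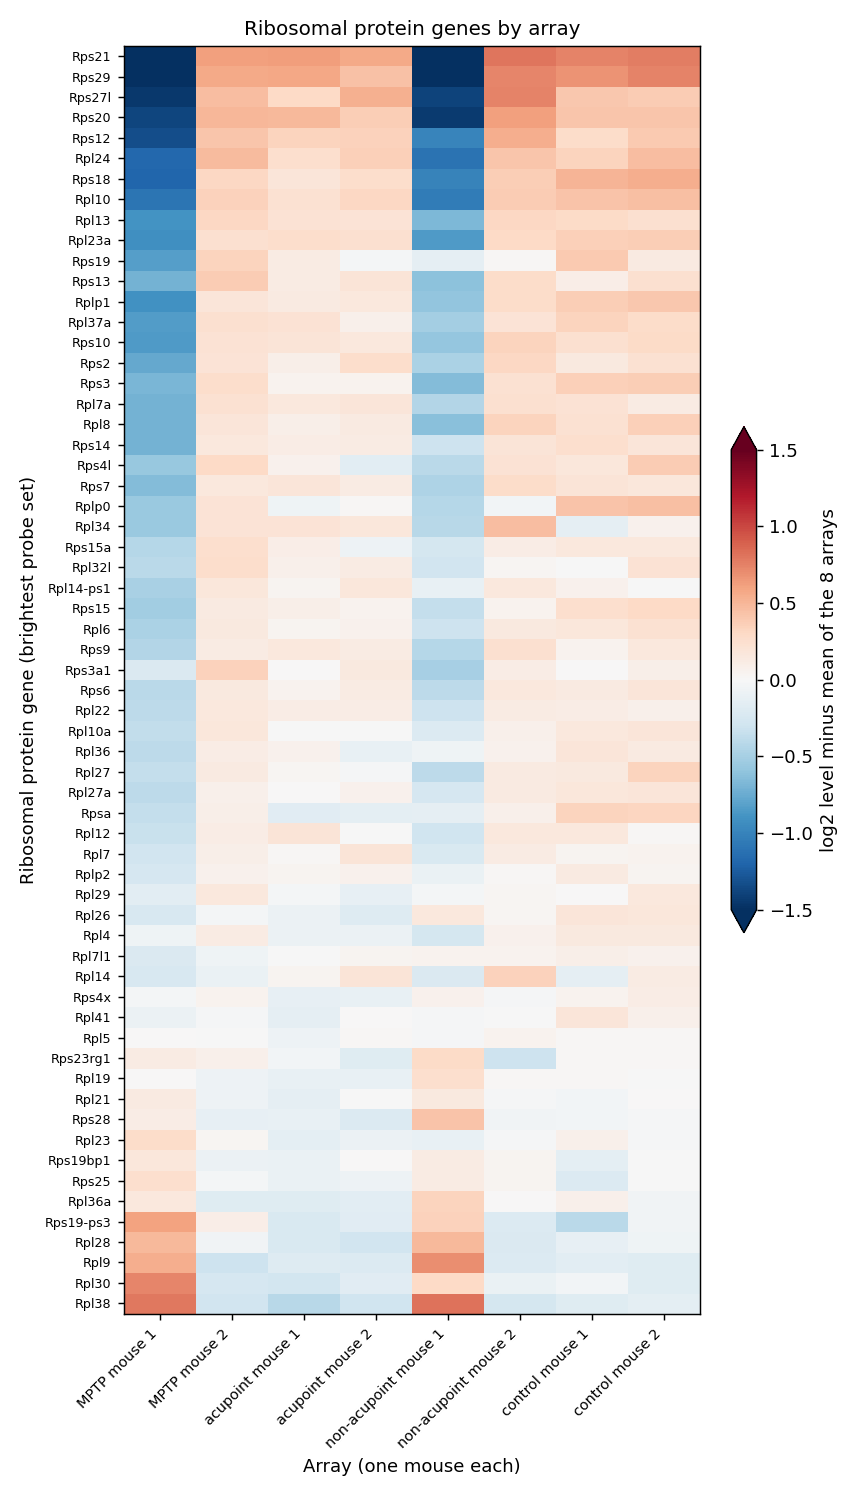
Each row is 1 of the 62 ribosomal protein genes, sorted by its difference between MPTP mouse 1 and mouse 2, and each column is 1 array. Colour gives the log2 level minus the gene's mean over the 8 arrays, blue for lower and red for higher. The columns of MPTP mouse 1 and non-acupoint mouse 1 are blue in most rows and red in the last rows, where Rpl38 closes the list.

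Small subunit genes lay lower than large subunit genes on both of these arrays. On MPTP mouse 1 the median deviation was -0.60 over 26 small subunit genes and -0.35 over 36 large subunit genes, and on non-acupoint mouse 1 it was -0.42 and -0.22. Within the MPTP group, mouse 1 minus mouse 2 had a median of -0.83 for small and -0.45 for large subunit genes. Within the non-acupoint group these medians were -0.62 and -0.32. Because 2 mice of a group carry no replicate of their difference, these are descriptions with no test.

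**Figure D2:**
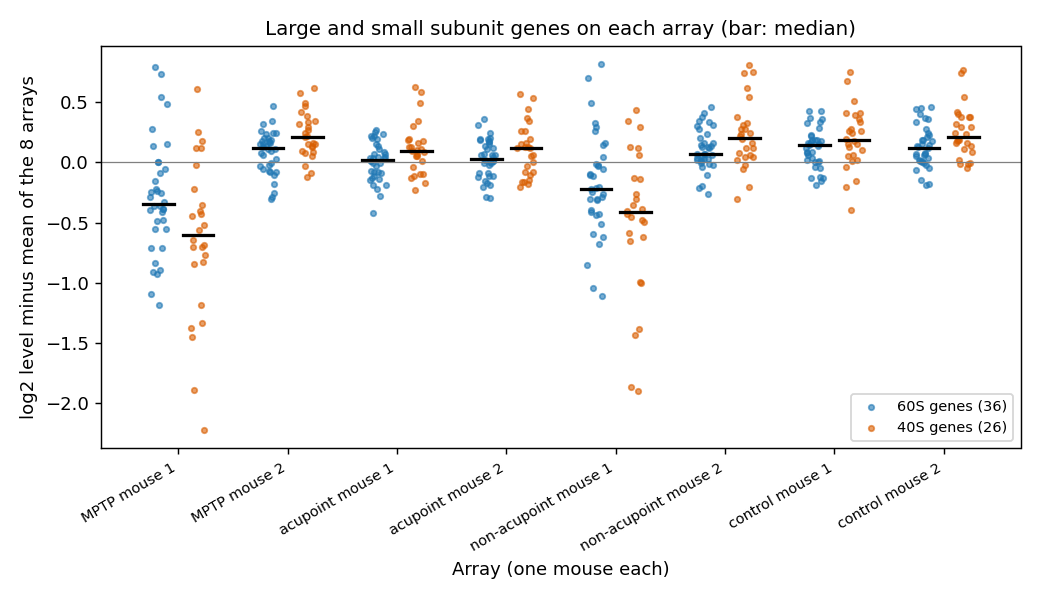
Points are genes, blue for 60S (36) and orange for 40S (26), plotted per array as the log2 level minus the gene's mean over the 8 arrays, with a black bar at the median. The bars lie at -0.35 and -0.60 on MPTP mouse 1 and at -0.22 and -0.42 on non-acupoint mouse 1, and above 0 on the other 6 arrays.

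Levels of the members differed far more between the mice of these groups than between those of the acupoint and control groups. In the MPTP group 48 members were lower and 14 higher in mouse 1, with a median difference of -0.56 and a range of -2.83 to 1.08. At least 1.2-fold lower were 42 members, where 31.8% of all tested probe sets were so, and at least 1.2-fold higher were 7, against 32.7%. In the non-acupoint group 48 were lower and 14 higher, the median was -0.40, and 39 were at least 1.2-fold lower (29.9% of all tested) and 8 at least 1.2-fold higher (26.4%). In the acupoint group the median difference between the mice was -0.01 and no member reached 1.2-fold in either direction, where 6.31% of all tested were that much lower and 4.33% higher. In the control group the median was -0.02 and 1 member (Rps19-ps3) was at least 1.2-fold lower, against 3.43% of all tested.

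The same members moved in both groups with a wide spread. Of the 62, 46 were lower in mouse 1 of both groups (39.7% of all tested probe sets were) and 12 higher in both (38.3%). Across the 62 genes the difference in the MPTP group and that in the non-acupoint group correlated at r = 0.950, beside 0.822 over all 15791 probe sets; genes are not independent replicates, and the 2 arrays share whatever set them apart. The MPTP difference had r = 0.02 with the control difference and -0.16 with the acupoint difference over the same 62 genes.

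Among small subunit proteins, Rps21 had log2 levels of 6.97 and 9.81 in MPTP mice 1 and 2, 9.81 and 9.76 in acupoint mice, 7.30 and 9.997 in non-acupoint mice, and 9.94 and 9.95 in control mice. Mouse 1 of the MPTP and non-acupoint groups stood far under the 6 others, which lay close together. Rps29, a zinc-binding protein of the small subunit head, had 7.41 and 9.88 in MPTP mice, 9.89 and 9.75 in acupoint mice, 7.43 and 10.04 in non-acupoint mice, and 9.97 and 10.05 in control mice. Rps20, also of the head, had 8.01 and 9.88 in MPTP mice, 9.87 and 9.75 in acupoint mice, 7.95 and 10.003 in non-acupoint mice, and 9.79 and 9.80 in control mice. For these genes the same 2 arrays were low; among the other 6, the acupoint mice lay under both control mice for Rps21 and Rps29 and overlapped them for Rps20. The group means of MPTP and non-acupoint mice therefore describe no single mouse.

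Rps12, which binds in the beak of the small subunit, had 8.17 and 9.92 in MPTP mice, 9.84 and 9.84 in acupoint mice, 8.51 and 10.04 in non-acupoint mice, and 9.78 and 9.90 in control mice. Rps18, a head protein that contacts the large subunit, had 9.76 and 11.26 in MPTP mice, 11.13 and 11.21 in acupoint mice, 9.94 and 11.32 in non-acupoint mice, and 11.45 and 11.49 in control mice. Rps18 thus combined the low pair of arrays with acupoint levels that lay under both control mice.

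Other small subunit members had smaller gaps. Rps6, the target of the S6 kinases, differed between MPTP mouse 1 and mouse 2 by -0.56, Rps3, which lines the mRNA entry channel, by -0.95, and Rps2, its neighbour there, by -0.98. Rps14, of which an allele is lost in the human 5q- syndrome, differed by -0.86, and Rps15 by -0.65. Rps19, mutated in human Diamond-Blackfan anaemia, differed by -1.16 in the MPTP group and by -0.15 in the non-acupoint group. Rps4x differed by -0.08 and 0.08 in these groups, and Rps25, needed for initiation at some viral internal entry sites, by 0.28 and 0.08, so neither shared the low pair of arrays.

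Among large subunit proteins, Rpl24, which forms a bridge to the small subunit, had 9.49 and 11.14 in MPTP mice, 10.92 and 11.03 in acupoint mice, 9.57 and 11.08 in non-acupoint mice, and 11.01 and 11.14 in control mice. Rpl10, one of the last proteins added to the large subunit, had 10.87 and 12.31 in MPTP mice, 12.19 and 12.27 in acupoint mice, 10.92 and 12.34 in non-acupoint mice, and 12.39 and 12.41 in control mice. Both again had their 2 lowest arrays in mouse 1 of the MPTP and non-acupoint groups. Rpl5, which carries the 5S rRNA and binds Mdm2, differed between the mice by 0.01 in the MPTP group and -0.07 in the non-acupoint group, and Rpl41, the shortest of the proteins, by -0.06 and -0.01. Rpl4 differed by -0.18 and -0.33, and Rpl22, which also binds viral RNA, by -0.55 and -0.43.

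A minority of large subunit genes went the other way. Rpl38, which in mouse embryos is needed for translation of Hox mRNAs, had 12.10 and 11.02 in MPTP mice, 10.89 and 11.01 in acupoint mice, 12.12 and 11.04 in non-acupoint mice, and 11.12 and 11.16 in control mice. Rpl9 had 12.46 and 11.61 in MPTP mice, 11.73 and 11.71 in acupoint mice, 12.63 and 11.72 in non-acupoint mice, and 11.77 and 11.74 in control mice. Rpl28 had 11.68 and 11.15 in MPTP mice, 10.98 and 10.91 in acupoint mice, 11.69 and 10.98 in non-acupoint mice, and 11.08 and 11.14 in control mice. In each of these genes the 2 arrays that were low for Rps21 were the highest. Rpl30 had 8.82 in MPTP mouse 1 and 8.39 in non-acupoint mouse 1, and 7.81 to 8.06 on the other 6 arrays.

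The stalk of the large subunit, which recruits elongation factors, is built of Rplp0, Rplp1 and Rplp2. Rplp0, its base, had 10.44 and 11.20 in MPTP mice, 10.92 and 11.01 in acupoint mice, 10.57 and 10.96 in non-acupoint mice, and 11.42 and 11.44 in control mice. Rplp1 had 10.61 and 11.70 in MPTP mice, 11.65 and 11.67 in acupoint mice, 10.92 and 11.79 in non-acupoint mice, and 11.89 and 11.92 in control mice. For both genes the 2 control mice were the highest of the 8. Rplp2 had 6.11 and 6.42 in MPTP mice, 6.40 and 6.42 in acupoint mice, 6.26 and 6.38 in non-acupoint mice, and 6.50 and 6.40 in control mice. Its non-acupoint mice lay under both acupoint and both control mice, and the other pairs of groups overlapped.

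Paralogs and copies did not follow one pattern. Rps27l, a p53-inducible paralog of Rps27, had 4.96 and 6.87 in MPTP mice, 6.71 and 6.94 in acupoint mice, 5.02 and 7.15 in non-acupoint mice, and 6.81 and 6.78 in control mice. Rpl7l1, a paralog of Rpl7, lay between 8.25 (MPTP mouse 1) and 8.55 (control mouse 1) on all 8 arrays. Rps4l had 7.01 in MPTP mouse 1, 7.17 in non-acupoint mouse 1 and 7.41 to 7.95 on the others. Rps19-ps3, a pseudogene, was highest on MPTP mouse 1 (7.95) and non-acupoint mouse 1 (7.69), and 6.95 to 7.44 on the others. Rps19bp1 lay between 8.28 and 8.60. Fau, whose product is cut into a ubiquitin-like protein and the ribosomal protein Rps30, carries no Rps symbol and was no member. It had 9.72 and 10.60 in MPTP mice, 10.56 and 10.48 in acupoint mice, 9.81 and 10.59 in non-acupoint mice, and 10.75 and 10.75 in control mice, so its 2 low arrays were the same.

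Ribosomal protein mRNAs have many processed copies in the mouse genome, and a probe set can pick up RNA from near-identical copies, so a level may join several sources. The members had 218 single-symbol probe sets past the minimum, of which 19 shared their values with another. Of these 218, 165 were lower in MPTP mouse 1 than in mouse 2 (50.4% of all tested were), with a median difference of -0.56. Among 39 members with several probe sets, the direction was mixed in 3, namely Rpl5, Rps28 and Rps4x. Rps28 ran from -0.79 to 0.26 over its 7 probe sets, with the brightest at 0.23, so its direction depends on the probe set. The brightest probe set of Rps6 gave -0.56, whereas its 8 probe sets together ran from -1.28 to -0.56.

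**Figure D3:**
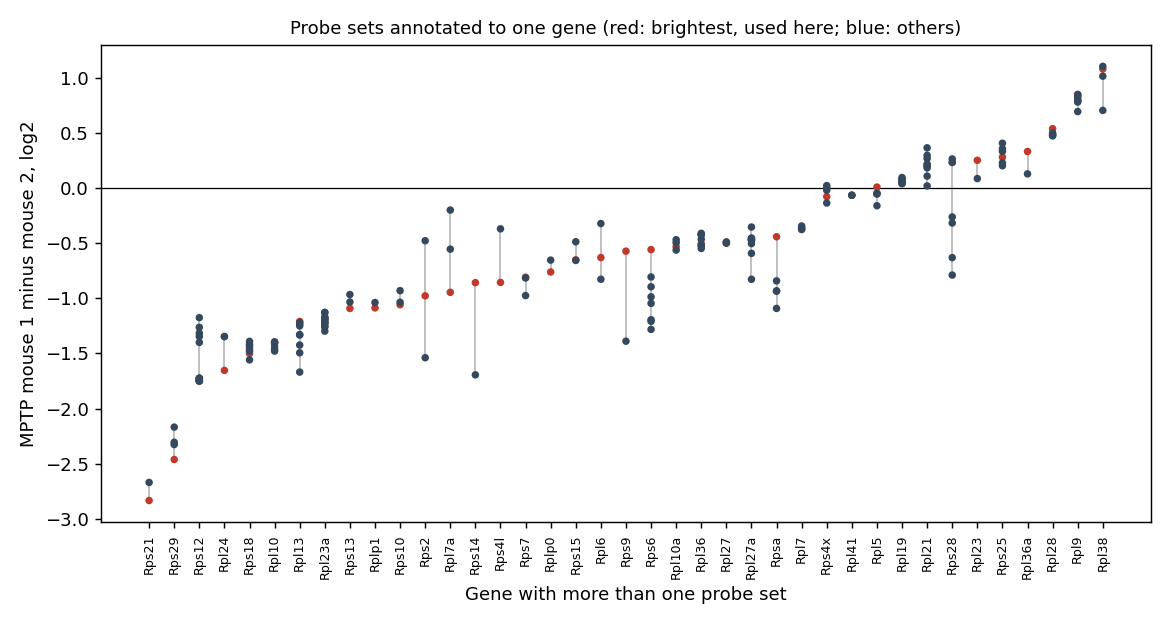
For each of the 39 members with several probe sets, points give MPTP mouse 1 minus mouse 2 on the log2 scale, red for the brightest probe set and blue for the others, joined by a grey line. Points of a gene lie on one side of 0 except for Rpl5, Rps28 and Rps4x, and Rps21 lies lowest, at -2.83 and -2.67.

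MPTP against control asks what the toxin alone changed. The members' median was -0.28, with 50 lower and 12 higher in MPTP mice, where 52.2% of all tested probe sets were lower and 47.8% higher. In 25 members both MPTP mice lay under both control mice (20.4% of all tested) and in 3 both lay above (18.2%). By limma over all 8 arrays no member passed an adjusted p of 0.05, nor did any other probe set (0%), and 1 member, Rpsa, had an unadjusted p under 0.05 (unadjusted p = 0.0386, adjusted p = 0.714), where 1.96% of all tested were so as lower and 3.33% as higher. The standard error of a single member's difference had a median of 0.253. The median rested on mouse 1: with 6 arrays, without MPTP mouse 1 and non-acupoint mouse 1, it was -0.03 with 38 lower (52.7% of all tested were lower), and again no member passed, with 2 lower and 1 higher at an unadjusted p under 0.05 (8.47% and 7.38% of all tested).

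Markers of tissue composition differed in the same comparison over 8 arrays: 7 of 7 choroid plexus markers (median 2.18) and 7 of 8 thalamic markers (0.71) were higher in MPTP mice, and 7 of 7 dopaminergic (-0.92) and 5 of 5 hypothalamic markers (-1.20) were lower. Their part in the members' difference was not tested.

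By the fit to 8 arrays, the members with the smallest p in MPTP against control among those whose groups did not overlap were Rpsa, Rplp0, Rpl26, Rps19-ps3 and Rps15. Their differences were -0.46 ± 0.18 (SE), -0.61 ± 0.26, -0.31 ± 0.14, 0.58 ± 0.26 and -0.47 ± 0.24, each with a limma adjusted p of 0.714. With 6 arrays these differences became -0.24, -0.23, -0.21, 0.32 and -0.14. Because the groups of these genes did not overlap, leaving out MPTP mouse 1 could change the size but not the direction.

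Acupoint against control gave a smaller but more even difference. The median was -0.12, with 47 members lower and 15 higher in acupoint mice (50.3% and 49.7% of all tested), and it was -0.13 for large and -0.10 for small subunit genes. In 39 members (62.9%) both acupoint mice lay under both control mice, where 29.2% of all tested probe sets did, and in 1, Rpl34, both lay above, against 30.4%. Over 8 arrays no member passed by limma's adjusted p (0% of all tested passed), and 1 (Rpsa) had an unadjusted p under 0.05, where 2.34% of all tested had one as lower and 3.29% as higher. Neither group holds an array that stood apart, so the differences are the same with 6 arrays, but the spread they are read against is smaller there (median residual SD 0.0760 instead of 0.207). With 6 arrays the MPTP and non-acupoint groups hold 1 mouse each, so the spread comes from the acupoint and control mice alone (2 residual degrees of freedom), and p-values for the other comparisons assume that the lone mice vary like these.

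With 6 arrays 3 members fell in acupoint mice and none rose by limma's adjusted p: Rpsa, Rplp0 and Rps3. That is 4.84% of the members, beside 3.31% of all tested probe sets called lower and 5.33% called higher, so the share of members called lay near the background. At an unadjusted p under 0.05, 13 members were lower (13.0% of all tested) and 1, Rpl34, was higher (14.9%).

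Rpsa, a small subunit protein also known as a laminin receptor precursor, had 10.21 and 10.65 in MPTP mice, 10.40 and 10.42 in acupoint mice, 10.43 and 10.64 in non-acupoint mice, and 10.90 and 10.88 in control mice. Both control mice were the highest of the 8, and the acupoint mice lay under the second mouse of every other group. The difference of acupoint from control mice was -0.48 ± 0.07 (SE, 6 arrays, limma adjusted p = 0.0152) and the adjusted p was 0.779 with 8 arrays; over 23 alternatives it ran from 0.00531 to 1, and it passed in 4. Of these, the fit to 6 arrays and that to only the groups compared give the same calls and p-values here and are 1 line of evidence, as for the next genes. Rpsa had 5 probe sets, which gave -0.48 to -0.14, and their mean gave -0.27 (8 arrays, limma adjusted p = 1.00), so the size depends on the probe set.

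Rplp0, given above, differed by -0.46 ± 0.07 (SE, 6 arrays, limma adjusted p = 0.0193; 1.00 with 8 arrays), and its adjusted p ran from 0.0151 to 1 over 23 alternatives and passed in 3. Its other probe set gave -0.37. Rps3 had 9.08 and 10.03 in MPTP mice, 9.82 and 9.83 in acupoint mice, 9.12 and 10.002 in non-acupoint mice, and 10.13 and 10.14 in control mice. Its difference was -0.31 ± 0.07 (SE, 6 arrays, limma adjusted p = 0.0478; 1.00 with 8 arrays), with adjusted p from 0.0478 to 1 over 23 alternatives, passing in 2, which are that same fit. For Rps3 the acupoint mice lay under both controls and under mouse 2 of the other groups, and above mouse 1 of the MPTP and non-acupoint groups.

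Other members lay close to the threshold. Rpl26, which binds p53 mRNA, had 8.10 and 8.30 in MPTP mice, 8.25 and 8.14 in acupoint mice, 8.50 and 8.36 in non-acupoint mice, and 8.52 and 8.51 in control mice. Its difference of acupoint from control mice was -0.32 ± 0.07 (SE, 6 arrays, limma adjusted p = 0.0561); it passed with array weights (adjusted p = 0.0268), where Rps3 did not, and its adjusted p ran up to 1 over the alternatives. Rps18 differed by -0.30 (adjusted p = 0.0595), and all 7 of its probe sets lay between -0.31 and -0.27. Rps4x (-0.20) and Rpl41 (-0.19) were named by the smallest p in the fit to 8 arrays, where their limma adjusted p was 1.00. Of the members lowest on MPTP mouse 1 and non-acupoint mouse 1, Rps20 had 0.01, Rps27l 0.03 and Rps12 0.00 between acupoint and control mice, while Rps29 had -0.19 and Rps21 -0.16. At the high end, Rpl34 had 0.22 ± 0.09 (SE, limma adjusted p = 0.179) and Rpl14 0.13.

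**Figure D4:**
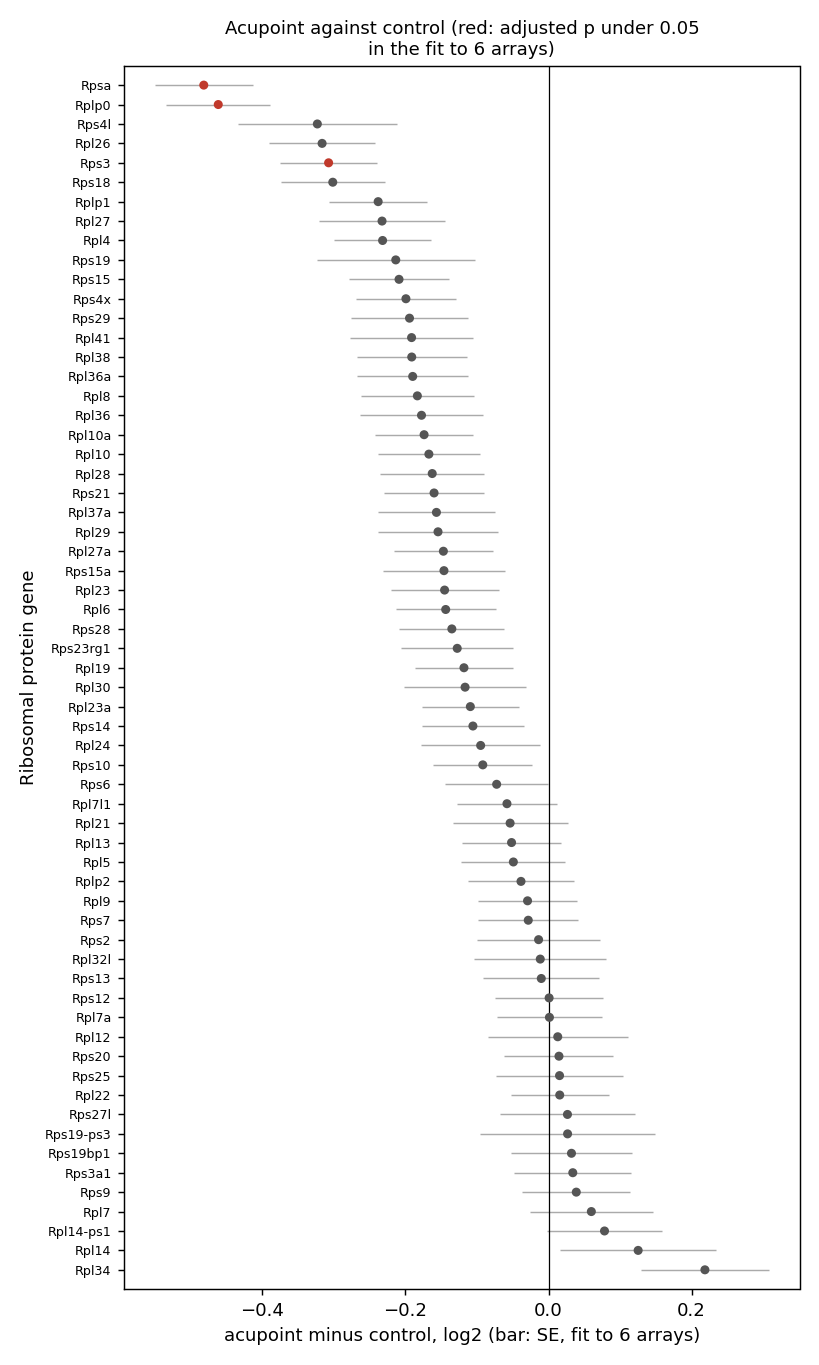
The 62 members are sorted by acupoint minus control on the log2 scale, from Rpsa (-0.48) at the top to Rpl34 (0.22) at the bottom, with bars of 1 SE from the limma fit to 6 arrays. Red points (Rpsa, Rplp0 and Rps3) have an adjusted p under 0.05 in that fit, and 47 of the 62 points lie left of 0.

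Over all 218 probe sets of the members, 184 were lower in acupoint than in control mice (50.3% of all tested were), with a median of -0.12. Of the 39 members with several probe sets, 9 had both signs. Markers of tissue composition also differed in this comparison. By the same difference, all 7 measured choroid plexus markers were higher in acupoint mice (median 1.75), as were all 8 thalamic neuron markers (0.85) and all 6 endothelial markers (0.26). Lower were 6 of 7 dopaminergic neuron markers (median -1.64), all 5 hypothalamic markers (-1.24), all 7 oligodendrocyte markers (-0.21) and all 6 microglial markers (-0.12). Astrocyte markers (3 of 7 higher, median -0.13) and general neuronal markers (4 of 7 higher, median 0.02) were divided. The choroid plexus median deviation was 0.73 and 1.68 on the acupoint mice, against -0.73 and -0.68 on the control mice, and the dopaminergic one was -0.64 and -0.69 on the acupoint mice, against 1.10 and 0.83 on the control mice. The part of tissue composition in the members' difference was not tested.

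Non-acupoint against control had a median of -0.24, with 49 members lower (52.4% of all tested were), and it too rested on mouse 1. Here 7 of 7 choroid plexus (median -0.77) and 7 of 7 dopaminergic markers (-1.31) were lower and 8 of 8 thalamic markers (0.79) higher in non-acupoint mice, and their part was not tested. Both non-acupoint mice lay under both controls for 21 members (22.3% of all tested) and above for 2 (25.5%). No member passed by limma (0%), and 1, Rplp0, had an unadjusted p under 0.05 (-0.67 ± 0.26, SE, limma adjusted p = 0.705), where 2.2% of all tested had one as lower and 2.68% as higher. With 6 arrays the median was -0.02 and Rplp0 differed by -0.47 (adjusted p = 0.0835), with 4 members lower and 3 higher at an unadjusted p under 0.05 (9.40% and 11.7% of all tested) and none past the threshold. The 3 comparisons against control use the same 2 control arrays, so a level peculiar to those arrays enters all of them: for Rplp0 the differences with 6 arrays were -0.23 for MPTP, -0.46 for acupoint and -0.47 for non-acupoint mice, and for Rpsa -0.24, -0.48 and -0.25.

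Acupoint against MPTP, the question of what needling at the acupoints added, had a direction that depended on mouse 1. With 8 arrays the median was 0.20 with 42 members higher (51.3% of all tested were), both acupoint mice lay above both MPTP mice in 2 (14.5% of all tested) and below in 9 (12.5%), and no member passed by limma or reached an unadjusted p under 0.05, which 0.671% of all tested did as higher and 0.697% as lower. With 6 arrays the median was -0.07 and 52 members were lower (48.2% of all tested were), with 6 lower at an unadjusted p under 0.05 (5.41% of all tested), none past the threshold, and Rpsa first (-0.24, limma adjusted p = 0.289). Members named by their p with 8 arrays were Rps19-ps3 (-0.55), Rpl23 (-0.27), Rpl28 (-0.47), Rpl38 (-0.61) and Rpl14 (0.29), each with a limma adjusted p of 0.889. The difference of Rpl38 came to -0.07 with 6 arrays, and that of Rpl14 to 0.22. Over 8 arrays, 6 of 7 choroid plexus (median -0.28), 5 of 7 dopaminergic (-0.71) and 4 of 5 hypothalamic markers (-0.11) were lower in acupoint mice. Of the thalamic markers 7 of 8 were higher (0.24). Their part in the members' difference was not tested.

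Acupoint against non-acupoint, which asks about the needling site, also had a direction that depended on mouse 1. The median was 0.14 with 41 members higher over 8 arrays (52.3% of all tested were). Groups did not overlap for 13 lower (18% of all tested) and 2 higher members (13.8%). No member passed by limma or had an unadjusted p under 0.05, which 1.12% of all tested had as higher and 0.773% as lower. With 6 arrays it was -0.10 with 54 members lower (56.7% of all tested were), 4 lower at an unadjusted p under 0.05 (4.37% of all tested) and none past the threshold. Rpl36a, Rpl19, Rps28, Rpl26 and Rpl28 were named by p, with -0.34, -0.25, -0.35, -0.23 and -0.40 over 8 arrays (limma adjusted p = 0.893 each). With 6 arrays the differences were -0.18, -0.13, -0.10, -0.17 and -0.04. These genes were named among those whose groups did not overlap, so leaving out a mouse could not change the sign on the probe sets used. For Rps28 the gap between non-acupoint mice 1 and 2 was 0.49 there, and down to -0.86 on its other probe sets. Over 8 arrays, 7 of 7 choroid plexus (median 2.89) and 7 of 8 thalamic markers (0.19) were higher in acupoint mice. Lower were 5 of 7 dopaminergic (-0.32) and 5 of 5 hypothalamic markers (-0.39). The markers' part in the members' difference was not tested.

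Non-acupoint against MPTP, hip needling added to the toxin, had a median of 0.05 with 50 members higher over 8 arrays (52.4% of all tested were). Groups did not overlap for 4 higher (5.67% of all tested) and 1 lower member (6.74%), no member passed by limma (0.0443% of all tested passed as lower and 0% as higher), and none had an unadjusted p under 0.05 (0.329% higher and 1.23% lower of all tested). Rpl26 came first, at 0.23 ± 0.14 (SE, limma adjusted p = 1.00). With 6 arrays the median was 0.03, with 35 members higher (58.2% of all tested were). Over 8 arrays, 7 of 7 choroid plexus (median -3.16) and 6 of 7 dopaminergic markers (-0.33) were lower in non-acupoint mice. Higher were 6 of 8 thalamic (0.08) and 5 of 5 hypothalamic markers (0.35). Their part in the members' difference was not tested.

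The 6 arrays can also be read without any fit. In 25 members (40.3%) both acupoint mice lay below MPTP mouse 2, non-acupoint mouse 2 and both control mice, where 11.7% of all tested probe sets did, and in no member did both lie above all 4, where 10.9% did. These 25 included Rpsa, Rps3, Rps18, Rpl26, Rpl10, Rpl38 and Rps6, genes that were low, high or little different on the 2 arrays left out. The gaps were small: in Rps6 the acupoint mice had 11.92 and 11.99, against 12.03 in MPTP mouse 2, 12.03 in non-acupoint mouse 2, and 12.004 and 12.06 in control mice.

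Other genes of translation shared the pattern of the 2 arrays in part. The 77 mitochondrial ribosomal protein genes had a median deviation of -0.22 on MPTP mouse 1 and -0.26 on non-acupoint mouse 1. Of these, 54 of 77 were lower in MPTP mouse 1 than in mouse 2 (50.4% of all tested were). The 10 elongation factor genes had -0.13 and -0.14 on these arrays, the 37 initiation factor genes -0.04 and -0.05, and the 52 ribosome biogenesis genes 0.06 and 0.01. The 21 translational control genes, kinases and regulators such as Eif2ak2, Eif2ak3 and Myc, lay the other way at 0.35 and 0.26. Of the markers of other cells given here, endothelial, oligodendrocyte, astrocyte and general neuronal medians lay outside the range of the other 6 on both arrays. The striatal median did so on MPTP mouse 1 alone and the microglial median on non-acupoint mouse 1 alone. The choroid plexus, thalamic, dopaminergic and hypothalamic medians did so on neither. The 5 striatal markers had a median deviation of 1.40 on MPTP mouse 1 and -0.59 on MPTP mouse 2, and 0.01 and -0.44 on the non-acupoint mice. The 7 dopaminergic markers had -0.58 and 0.67 on the MPTP mice and -0.24 and -0.12 on the non-acupoint mice, and the 5 hypothalamic markers -0.56 and -0.01, and 0.07 and 0.19. The 6 endothelial markers had a median deviation of 0.48 on MPTP mouse 1 and 0.43 on non-acupoint mouse 1, and the 7 oligodendrocyte markers -0.21 and -0.18. Among the other 6 arrays the endothelial median lay between -0.27 and 0.05 and the oligodendrocyte median between -0.11 and 0.30. The 7 astrocyte markers had -0.18 on MPTP mouse 1 and -0.23 on non-acupoint mouse 1, and -0.04 to 0.20 on the other 6. The 7 general neuronal markers had -0.08 and -0.11, and 0.03 to 0.14 on the other 6. The part of these markers' cells in the low levels of the members was not tested.

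**Figure D5:**
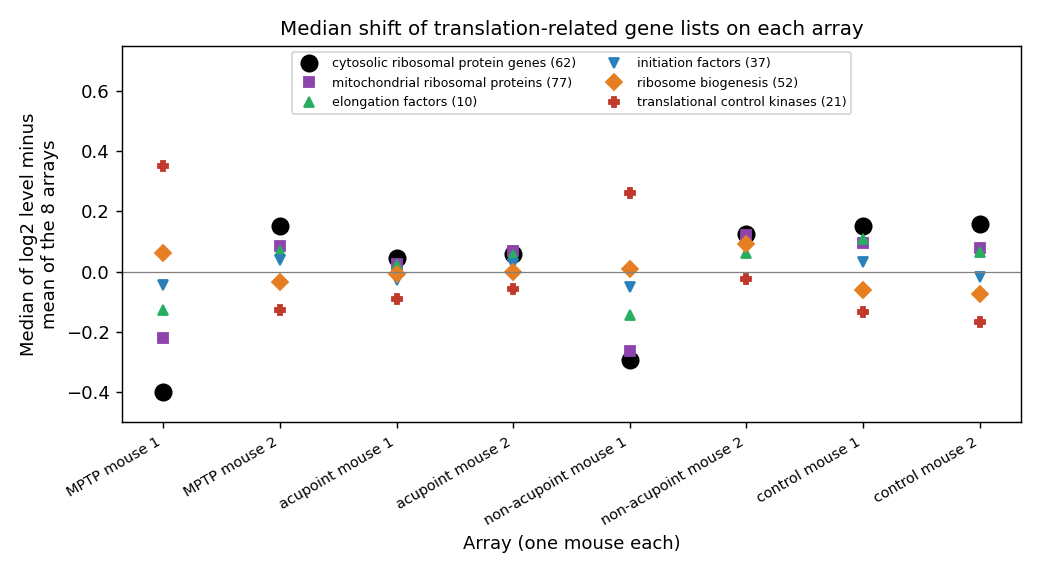
For each array, markers give the median over a gene list of the log2 level minus the gene's mean over the 8 arrays, with the number of genes in the legend. The black points of the ribosomal protein genes lie at -0.40 on MPTP mouse 1 and -0.29 on non-acupoint mouse 1, purple squares of mitochondrial ribosomal proteins follow at -0.22 and -0.26, and red crosses of translational control genes lie above 0 at 0.35 and 0.26.

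In MPTP against control, no gene of these lists passed by limma over 8 or 6 arrays. Of the elongation factor list, Tpt1, whose mRNA also begins with a pyrimidine tract, differed by -1.05 ± 0.86 (SE) and Eef1b2 by -0.78 ± 0.59, and with 6 arrays by 0.05 and -0.05. Eif2ak2, the kinase PKR, differed by 0.64 ± 0.24 and Eif2ak3, the kinase PERK, by 0.34 ± 0.13 (limma adjusted p = 0.714 each).

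In acupoint against control with 6 arrays, 4 genes of these lists passed by limma, where 5.33% of all tested probe sets passed as higher and 3.31% as lower. Myc, a driver of ribosome biogenesis, fell by 0.51 (adjusted p = 0.018), and Eif2ak3 rose by 0.37 (adjusted p = 0.047), 2 of 21 translational control genes. Rrs1, needed for large subunit assembly, rose by 0.37 (adjusted p = 0.032), 1 of 52 biogenesis genes, and Mrpl41 of the mitochondrial ribosome rose by 0.34 (adjusted p = 0.046), 1 of 77. None of 10 elongation factors and none of 37 initiation factors passed, with 1 and 4 of them at an unadjusted p under 0.05 (14.9% of all tested were so as higher and 13.0% as lower). Over 8 arrays none of the 4 genes passed, with limma adjusted p of 1.00 for Myc, 0.744 for Eif2ak3, 0.830 for Rrs1 and 1.00 for Mrpl41. The median difference was 0.05 for biogenesis genes, 0.12 for translational control genes and -0.01 for mitochondrial ribosomal proteins, beside -0.12 for the cytosolic ribosomal protein genes.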

How the data were processed

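Thalamic RNA of 8 mice was hybridised to 1 Affymetrix whole-transcript array each. The authors made the deposited log2 levels with Affymetrix Expression Console and RMA, per the submitters' processing notes. Versions: not given in the sources used here. RMA equalises the arrays' distributions, which hides changes in total RNA. Genes were named through the platform annotation (35557 probe sets, 21789 with 1 symbol, 1621 with several, 12147 unnamed here), and sequences come from RefSeq GRCm38.p6.

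The fit, in limma 3.58.1 under R 4.3.3, held 1 mean for each group over the 8 arrays (4 residual degrees of freedom, 2.53 prior) over 15791 named probe sets, without the dimmest 40%. Two-sided tests were used, with Benjamini-Hochberg adjustment over all of these and a threshold of 0.05. The p-values measure only how far mice sharing a group differ, pooled over 4 groups (over acupoint and control mice alone with 6 arrays). An exact permutation of 2 against 2 mice cannot go below a p of 0.333 and was not used. The procedure was tested on simulated data. The number of arrays limits precision.

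The members, gene lists and alternatives were chosen with earlier results of these data known. Named were members past the threshold, filled to 5 per comparison by smallest p among those whose groups do not overlap, and lists of well-known members, among which Rps27a and Gnb2l1 had no single-symbol probe set past the minimum. From the other translation lists, genes of smallest p were eligible to be named. Rps12, Rps18, Rps21, Rpl9, Rpl24, Rpl28, Rpl34 and others outside this rule were named after their values were seen. Mouse numbers were not taken to pair the mice, as the sample labels state no pairing. The differences of mouse 1 from mouse 2 correlated between groups at -0.28 to 0.82, and 4 of 6 pairs were at or under 0.1. The value of 0.82 was that of the MPTP with the non-acupoint group. Whether mice of the same number were handled together was not tested.

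Alternatives were a second quantile normalization, cyclic loess, median centring, no filter or the dimmest 60% left out, an intensity trend, robust moderation, array weights, only the groups compared, a replicate block, 6 arrays, a term for the 2 arrays, the mean of all probe sets of a gene, unnamed probe sets included, and each mouse left out in turn.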

Additional observations from a re-analysis of the deposited data

How the results depend on the processing

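Under most alternatives the members' medians kept their sign and moved by less than the spread of array medians (pooled within-group SD 0.245). That SD is a wide yardstick, as it includes the gaps within the MPTP (-0.40 and 0.15) and non-acupoint groups (-0.29 and 0.12). It exceeds the size of the acupoint against control median (-0.12), so staying within it says little there. Acupoint against non-acupoint changed sign within it, from 0.14 with 8 arrays to -0.10 with 6. In acupoint against control, 0 members passed as reported, 3 with array weights (Rpsa, Rplp0 and Rpl26), 3 with 6 arrays or only the groups compared (Rpsa, Rplp0 and Rps3; the same fit in effect), and 1 with a term for the 2 arrays (Rpsa). The median there lay between -0.14 (cyclic loess) and -0.08 (each array centred on its median) over all alternatives. In the other comparisons no member passed under any alternative. The median for acupoint against MPTP was -0.0654 with 6 arrays and ran from -0.0654 (without MPTP mouse 1) to 0.47 (without MPTP mouse 2) with 1 mouse left out, and that for MPTP against control was -0.0255 with 6 arrays and ran from -0.55 (without MPTP mouse 2) to -0.0255 (without MPTP mouse 1). For non-acupoint against MPTP the range was -0.23 (without MPTP mouse 1) to 0.33 (without MPTP mouse 2). With a term for the 2 arrays, acupoint against non-acupoint was -0.14 and non-acupoint against control 0.00982. These settings leave out an MPTP mouse, or leave out or absorb the 2 arrays that stood apart; the cause of the arrays' difference was not tested. With the replicate block, mouse number as a term, 0 members passed and the median for acupoint against control was -0.12. The labels state no pairing by mouse number, and the block changed no call. Limiting the set to 56 ribosomal proteins and paralogs, an alternative added after seeing the data, gave -0.13 for that comparison. Signal over background limits the dimmest members, such as Rpl14-ps1 and Rps23rg1.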

Other observations

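Probe sets annotated to several symbols, 1 of them a ribosomal protein gene, were not members, and they give the levels of genes such as Rpl3, Rpl11 and Rps24 only jointly. Of 238 such probe sets past the brightness minimum, 233 held distinct values. Their median difference between mouse 1 and mouse 2 was -0.45 among MPTP mice and -0.42 among non-acupoint mice. Of the 238, 169 were lower in MPTP mouse 1 (50.4% of all tested were). Between acupoint and control mice their median was -0.10, with 205 lower in acupoint mice (50.3% of all tested were).

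The members lay on autosomes and the X chromosome, with 9 on chromosome 7, 7 each on chromosomes 9 and 17, and 3 on X.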
